A study of Homo sapiens with 8 samples.

Results

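The genes of cholesterol synthesis and of its sterol regulatory element-binding protein (SREBP) regulators examined here were SREBF1, SREBF2, INSIG1, HMGCS1, IDI1, FDFT1, SQLE and DHCR7. These 8 genes were taken from 20033 protein-coding genes of the annotation, and every H3K27ac peak in the gene body or within 20 kb on either side was collected. H3K27ac, acetylation of lysine 27 of histone H3, marks active promoters and enhancers. The windows held 83 of the 143733 intervals formed by merging overlapping or touching peaks across the libraries.

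HCEC-1CT, an immortalized line labelled as colonic epithelial cells, was profiled by H3K27ac ChIP-seq in 3 WT and 3 CREBBP-KO libraries. CREBBP, also called CBP, is a lysine acetyltransferase that deposits this mark, and the labels give no treatment for either genotype. Each library came from a separate growing population of cells, but the study describes the knockout cells as monoclonal and elsewhere describes pools of several clones and of matched parental subclones, so clone and genotype cannot be told apart. The comparison asks how loss of CREBBP altered the distribution of the mark, here at the sterol genes.

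Cells make cholesterol from acetyl-CoA through the mevalonate pathway. When sterols are low, SREBP precursors leave the endoplasmic reticulum with SCAP, are cleaved in the Golgi, and enter the nucleus as transcription factors that induce the synthesis genes. When sterols are high, INSIG proteins hold SCAP and the SREBP precursor in the endoplasmic reticulum, which makes the pathway a textbook case of feedback.

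The 3 WT lists held 86163 to 93567 peaks and the 3 CREBBP-KO lists 99008 to 111697, with median folds of 4.33, 4.34 and 4.46 against 4.02, 4.07 and 4.11. The fold is the enrichment at a peak's summit over local background, as a linear ratio. The position of a peak within its own list was also used: its percentile is the percent of peaks in that library with the same or a lower fold. The CREBBP-KO lists were longer and held more weak peaks, which by itself raises the percentile of a strong peak in them. The lists do not give the depth of each library, so no counting interval can be given. In these bulk populations, fewer cells with the mark and less of the mark per cell cannot be told apart. The cell type label was checked on promoter peaks: 0 of 5 epithelial markers had one in all 6 libraries, EPCAM, CDH1, KRT8 and KRT19 had none in any library, and 0 of 6 intestinal markers had one. In contrast, 5 of 5 mesenchymal markers (VIM, COL1A1, COL3A1, DCN and ZEB1) had a promoter peak in all 6 libraries, at mean percentiles of 93.7 to 99.2. Endothelial and leukocyte markers, 2 and 3 genes, had none. The lists do not show the edited site, so loss of CREBBP was not checked.

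Promoter sequences from RefSeq (GRCh38.p14, 250 bases before to 50 bases after the start) matched 6 of the 8 genes and are shown for the SREBP genes, for INSIG1 and for HMGCS1, the gene whose promoter interval passed the test between genotypes. Capitals mark 4 motifs searched on both strands: the sterol regulatory element TCACNCCAC (SRE), which SREBPs bind, the E-box CACGTG, the CCAAT box of NF-Y and the GC box GGGCGG of Sp1. In all 6 genes the window began transcription at the same base as the canonical GENCODE transcript, so that the H3K27ac peaks described below as promoter peaks overlie it.
SREBF1, chr17:17836937-17837236, minus strand: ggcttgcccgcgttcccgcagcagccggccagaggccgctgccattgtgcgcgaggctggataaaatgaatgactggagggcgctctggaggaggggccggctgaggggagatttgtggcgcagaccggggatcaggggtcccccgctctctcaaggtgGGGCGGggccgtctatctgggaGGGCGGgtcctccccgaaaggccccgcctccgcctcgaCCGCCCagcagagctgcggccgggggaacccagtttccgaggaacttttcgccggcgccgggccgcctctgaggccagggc
SREBF2, chr22:41832855-41833154, plus strand: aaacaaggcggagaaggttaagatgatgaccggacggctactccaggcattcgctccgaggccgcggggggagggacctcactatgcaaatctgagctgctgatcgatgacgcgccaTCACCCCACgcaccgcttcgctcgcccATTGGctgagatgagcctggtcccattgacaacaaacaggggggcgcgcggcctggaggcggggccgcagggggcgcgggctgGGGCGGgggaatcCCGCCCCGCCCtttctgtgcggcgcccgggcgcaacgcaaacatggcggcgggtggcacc
INSIG1, chr7:155297628-155297927, plus strand: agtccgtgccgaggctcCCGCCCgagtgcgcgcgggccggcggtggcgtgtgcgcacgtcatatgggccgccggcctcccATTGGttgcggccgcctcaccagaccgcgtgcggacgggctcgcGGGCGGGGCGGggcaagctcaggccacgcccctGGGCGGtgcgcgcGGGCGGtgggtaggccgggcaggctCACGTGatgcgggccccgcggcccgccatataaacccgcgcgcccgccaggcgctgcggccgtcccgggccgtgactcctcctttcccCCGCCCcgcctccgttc
HMGCS1, chr5:43313363-43313662, minus strand: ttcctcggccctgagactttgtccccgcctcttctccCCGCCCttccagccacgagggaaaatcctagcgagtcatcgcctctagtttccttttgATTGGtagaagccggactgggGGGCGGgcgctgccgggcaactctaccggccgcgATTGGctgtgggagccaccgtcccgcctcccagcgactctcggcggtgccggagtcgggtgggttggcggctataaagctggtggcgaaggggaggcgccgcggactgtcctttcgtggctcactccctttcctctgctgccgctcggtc

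An SRE was found in 1 of the 6 windows, that of SREBF2, from 133 to 125 bases before the start, with a CCAAT box on the opposite strand from 106 to 102 bases before it. This motif was present in 1.13% of 35116 promoters of the same length. INSIG1 held the E-box found in 7.26% of promoters, together with 6 GC boxes, some of them overlapping. HMGCS1, IDI1 and DHCR7 held 2 CCAAT boxes each, a motif present in 34.6% of promoters, whereas SREBF1 held none. All 6 windows held a GC box, against 45% of promoters, and their GC content ran from 65.7% in HMGCS1 to 78.3% in INSIG1, against a median of 58.7%. A match to such short letters is a description of the window, and other forms of these motifs were not searched.

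Every one of the 8 genes had an H3K27ac peak overlapping the 1 kb on either side of its canonical start in all 6 libraries, as did 11837 of the 20033 protein-coding genes. At the promoters, differences between the genotypes went both ways. Percentiles of the 3 CREBBP-KO libraries were all higher at SQLE, IDI1 and DHCR7, all lower at SREBF1, and overlapped at SREBF2, INSIG1, HMGCS1 and FDFT1. At SREBF1 the peaks compared had different summits, as described below, and with a window of 3 kb the mean was 2.04 points higher in CREBBP-KO. Summits at SQLE also lay on opposite sides of the start in WT and CREBBP-KO. Of all protein-coding promoters, 46.0% had percentiles higher in all 3 CREBBP-KO libraries and 7.25% lower in all 3. The median difference between genotypes was 1.76 percentile points over the 8 promoters and 3.51 over all 11837. With every list reduced to its 86163 most significant peaks, the CREBBP-KO minus WT difference was lower at each of the 8 promoters. It went from 8.14 to 5.97 points at DHCR7, from 7.6 to 6.29 at IDI1, from 5.11 to 3.3 at SQLE and from -4.79 to -7.2 at HMGCS1. With 3 libraries against 3, the exact permutation test cannot go below p = 0.1.

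**Figure D1:**
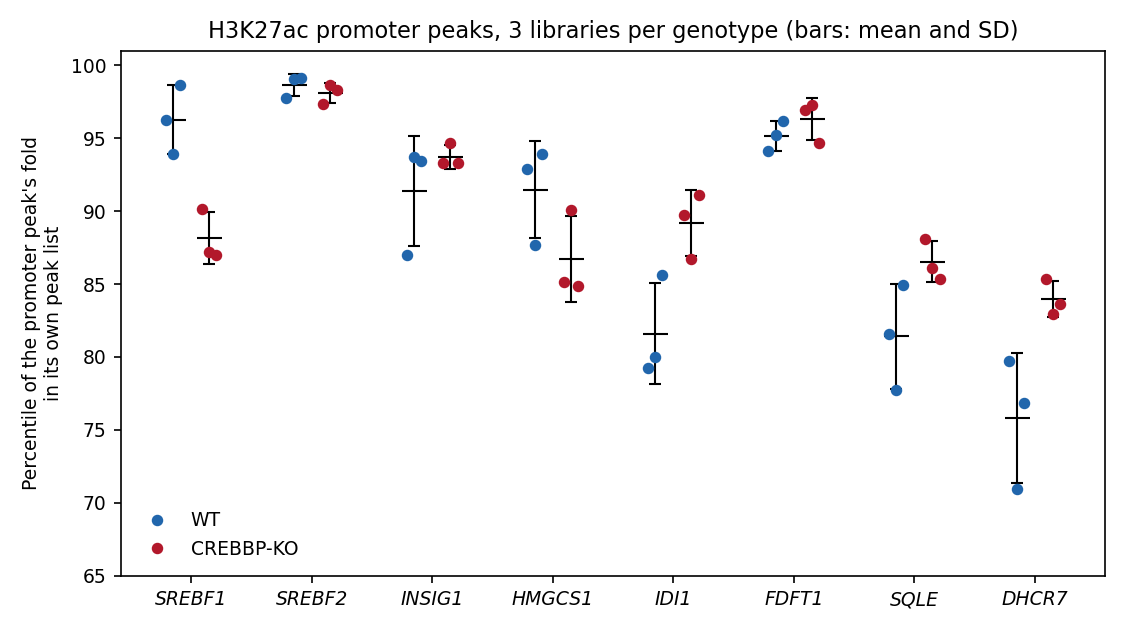
Percentile of each gene's promoter peak in its own list (vertical axis, from 65 to 100), with one point per library, blue for WT and red for CREBBP-KO, and bars for the mean and SD of 3 libraries. The points of the genotypes are apart at SREBF1, IDI1, SQLE and DHCR7, and SREBF2 lies above 97 in every library. At SREBF1 the points compare peaks with different summits. Summits also differed in position at SQLE, upstream of the start in WT and downstream in CREBBP-KO.

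SREBF2 (ENSG00000198911.13; chromosome 22, 41833105 to 41907306, plus strand, hg38) encodes SREBP-2, the form that mainly drives cholesterol synthesis. Its promoter peak had folds of 20.1, 22.7 and 23.9 in the WT libraries and 19.9, 25.1 and 24.2 in the CREBBP-KO libraries. It was the highest of the 8 promoters in both genotypes, with mean percentiles of 98.7 ± 0.766 for WT and 98.1 ± 0.675 for CREBBP-KO (SD, n = 3 each; exact permutation test, p = 0.5). The libraries overlapped, and the rank shift, a measure defined below for whole intervals, was -0.25 with an SE of 0.18 (limma, adjusted p = 0.272). Its summit lay 295 to 416 bp downstream of the start in all 6 libraries. In WT the percentiles of this peak overlapped with those of the SREBF1 promoter peak. Read over whole promoter intervals, SREBF1 had a CREBBP-KO mean of 98.3 against 98.1 for SREBF2, through a summit upstream of the SREBF1 start.

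SREBF1 (ENSG00000072310.18; chromosome 17, 17810399 to 17837002, minus strand) encodes SREBP-1, whose forms mainly act on fatty acid synthesis. The peak over its start had folds of 17.6, 14.6 and 22.1 in WT and 12.4, 11.5 and 11.9 in CREBBP-KO. That is percentile 96.3 ± 2.37 against 88.1 ± 1.78 (SD, n = 3 each), with all 3 CREBBP-KO libraries below all 3 WT libraries (exact permutation test, p = 0.1). The peaks compared did not have the same shape, however. In each WT library, 1 peak of 7.02, 5.95 or 6.30 kb covered the start and the region upstream of it, with its summit 3.42, 3.41 and 3.41 kb upstream of the start. In each CREBBP-KO library this span was divided into separate peaks with gaps of 532, 378 and 542 bp between them: one of 3.41, 3.51 or 3.31 kb over the start, with its summit 422, 200 and 447 bp downstream, and another upstream whose summit lay 3.41, 3.39 and 3.36 kb before the start. The upstream peak had folds of 21.9, 21.6 and 28.4 in CREBBP-KO, above the WT folds of 17.6 and 14.6 in all 3 libraries and above the 22.1 of WT replicate 3 in CREBBP-KO replicate 3. The percentiles at that summit, 96.2, 93.9 and 98.7 in WT and 98.2, 97.5 and 99.2 in CREBBP-KO, overlapped (exact permutation test, p = 0.3).

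The percentile difference at SREBF1 thus compared different summits. Read with a window of 3 kb on either side of the start, which reached the upstream peak in every library, the difference turned from 8.15 points lower to 2.04 points higher in CREBBP-KO. The interval as a whole had a rank shift of 0.31 with an SE of 0.20 (limma, adjusted p = 0.229), and without WT replicate 3 a shift of 0.54 with an adjusted p of 0.0297. In windows of 250 bp on either side of the summits, the upstream summit shifted by 0.29 with an SE of 0.19 in normal scores (limma, adjusted p = 0.23). The fold at the start itself in WT is not given by the lists, since they record 1 summit per peak, so a difference there could not be measured. A summit over 1 kb from the start in all 3 WT libraries and within 1 kb in all 3 CREBBP-KO libraries was found at 0.203% of the 11837 promoters. This criterion was chosen after the SREBF1 peaks were seen, so the share is a description only.

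**Figure D2:**
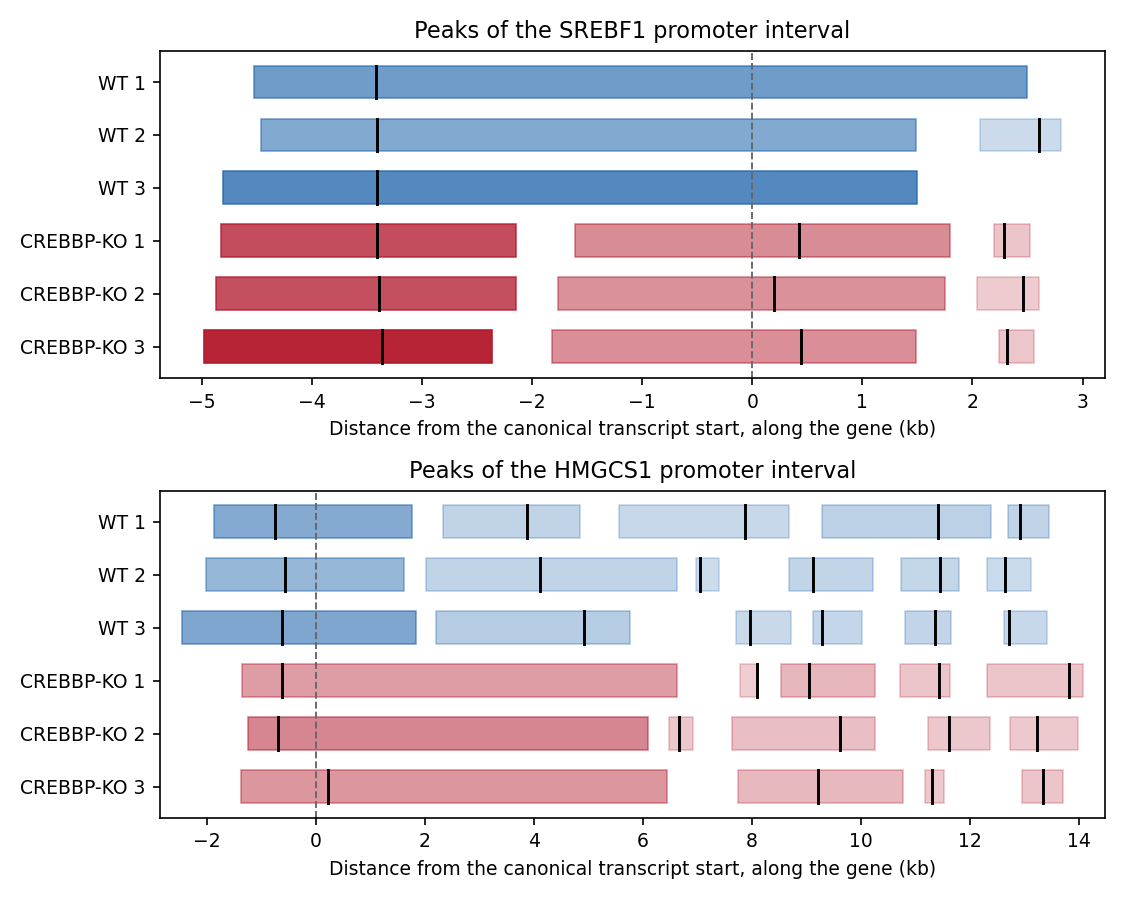
Peaks of the merged promoter intervals of SREBF1 and HMGCS1 by library, as bars along the distance from the canonical start in kb (horizontal axis, dashed line at the start), blue for WT and red for CREBBP-KO, with darker shades for higher folds and a black tick at each summit. At SREBF1, 1 WT peak spans the start and the summit about 3.4 kb upstream, which lie in separate peaks in CREBBP-KO, whereas at HMGCS1 the peak over the start is wider in the CREBBP-KO libraries.

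INSIG1 (ENSG00000186480.13; chromosome 7, 155297776 to 155310235, plus strand) encodes the endoplasmic reticulum protein that retains SCAP, and is itself an SREBP target. Its promoter folds were 11.2, 14.4 and 15.0 in WT and 14.6, 17.1 and 16.3 in CREBBP-KO, with percentiles of 91.4 ± 3.77 and 93.7 ± 0.823 (SD, n = 3 each; exact permutation test, p = 0.6). The genotypes overlapped, and the rank shift was 0.10 with an SE of 0.18 (limma, adjusted p = 0.67). WT replicate 1 was the lowest of the 6 libraries, and without it the shift was -0.08. The peak itself was narrower in all 3 CREBBP-KO libraries, at 3.14, 5.00 and 4.93 kb against 5.51, 5.50 and 5.61 kb, with the summit 599 to 707 bp upstream of the start throughout.

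Rank shifts are the CREBBP-KO minus WT differences in normal scores of the rank of an interval's highest fold, fitted with limma over all 34864 intervals that had a peak in all 6 libraries and a fold of at least 5 in all 3 libraries of a genotype. All 8 promoter intervals and 11 of the other intervals of these genes entered this test. Of the 19, 14 reached the fold in both genotypes, 3 in CREBBP-KO only and 2 in WT only, and such one-sided intervals were bound to differ in that direction or to lie near the limit.

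HMGCS1 (ENSG00000112972.15; chromosome 5, 43287470 to 43313512, minus strand), the cytosolic HMG-CoA synthase at the entry of the mevalonate pathway, was the one promoter of the 8 that passed the test. Its promoter folds were 14.4, 11.2 and 15.4 in WT and 9.80, 13.2 and 10.8 in CREBBP-KO. The interval ranked lower in CREBBP-KO by a shift of -0.51 with an SE of 0.19 (limma, adjusted p = 0.0379), although the libraries overlapped, since WT replicate 2 lay below CREBBP-KO replicate 2. Percentiles were 91.5 ± 3.36 in WT and 86.7 ± 2.96 in CREBBP-KO (SD, n = 3 each; exact permutation test, p = 0.2). The call was lost without WT replicate 1 (adjusted p = 0.104), WT replicate 3 (0.141), CREBBP-KO replicate 1 (0.139) or CREBBP-KO replicate 3 (0.114). It was also lost without a trend in limma (0.0893) and with the log2 of the fold (0.0574), and it passed in 9 of 15 alternatives. The summits lay 745, 562 and 626 bp upstream of the start in WT. In CREBBP-KO they lay 626 and 700 bp upstream and, in replicate 3, 215 bp downstream. With windows of 250 bp on either side of the summits, none at this promoter entered the test, so the call was not checked with matched summits.

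The HMGCS1 promoter peak was at the same time wider in CREBBP-KO. It spanned 3.63, 3.63 and 4.29 kb in WT and 7.98, 7.33 and 7.80 kb in CREBBP-KO, running 6.62, 6.09 and 6.43 kb into the gene body, where the WT libraries had a separate peak (folds of 4.72, 4.57 and 6.52). The 3 CREBBP-KO libraries all lay above the 3 WT libraries (exact permutation test, p = 0.1). Peak widths also differed without overlap at SREBF1 and INSIG1, both narrower in CREBBP-KO, and overlapped at the other 5 promoters. Of the 11837 protein-coding promoters, 15.6% had a wider and 6.76% a narrower peak in all 3 CREBBP-KO libraries.

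IDI1 (ENSG00000067064.13; chromosome 10, 1039152 to 1049119, minus strand), the isopentenyl diphosphate isomerase, had promoter folds of 8.58, 8.71 and 10.9 in WT and 12.1, 11.3 and 14.5 in CREBBP-KO. All 3 CREBBP-KO libraries stood above all 3 WT libraries in fold, at percentile 89.2 ± 2.26 against 81.6 ± 3.47 (SD, n = 3 each; exact permutation test, p = 0.1). The rank shift of 0.39 with an SE of 0.20 did not pass the threshold (limma, adjusted p = 0.122), and without WT replicate 3 it was 0.53 with an adjusted p of 0.0425. A coding start of WDR37 lies within 1 kb of this interval, so the peak cannot be assigned to IDI1 alone.

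FDFT1 (ENSG00000079459.14; chromosome 8, 11795573 to 11839395, plus strand), the squalene synthase that commits the pathway to sterols, had promoter folds of 15.3, 15.7 and 17.6 in WT and 19.2, 21.0 and 17.8 in CREBBP-KO. Every CREBBP-KO fold was above every WT fold, but the percentiles overlapped, at 95.2 ± 1.03 and 96.3 ± 1.41 (SD, n = 3 each; exact permutation test, p = 0.3). The rank shift was 0.09 with an SE of 0.16 (limma, adjusted p = 0.696).

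SQLE (ENSG00000104549.12; chromosome 8, 124998497 to 125022283, plus strand), the squalene epoxidase, had promoter folds of 9.26, 8.15 and 10.6 in WT and 11.2, 11.0 and 11.1 in CREBBP-KO. Percentiles were 81.4 ± 3.62 and 86.5 ± 1.41 (SD, n = 3 each; exact permutation test, p = 0.1), with the genotypes apart, but the normal scores overlapped and the shift was 0.19 with an SE of 0.20 (limma, adjusted p = 0.462). Its summit lay 363 to 416 bp upstream of the start in WT and 510 to 538 bp downstream in CREBBP-KO. With windows of 250 bp on either side of the summits, none at this promoter entered the test, so matched summits were not compared.

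DHCR7 (ENSG00000172893.18; chromosome 11, 71428193 to 71452868, minus strand), the reductase of a last step to cholesterol, had the lowest promoter of the 8 in both genotypes. Its folds were 8.71, 6.71 and 8.20 in WT and 9.87, 9.59 and 10.3 in CREBBP-KO. All 3 CREBBP-KO libraries stood higher, at percentile 84.0 ± 1.23 against 75.8 ± 4.46 (SD, n = 3 each; exact permutation test, p = 0.1), whereas the rank shift of 0.35 with an SE of 0.22 did not pass (limma, adjusted p = 0.22). The summit lay 445 and 546 bp upstream and 148 bp downstream of the start in the WT libraries, and 166 to 242 bp downstream in CREBBP-KO.

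In WT the promoters ran from SREBF2 through SREBF1, FDFT1, HMGCS1, INSIG1, IDI1 and SQLE to DHCR7 by mean percentile, and neighbours in this order were apart only between FDFT1 and HMGCS1 and between INSIG1 and IDI1. In CREBBP-KO the order was SREBF2, FDFT1, INSIG1, IDI1, SREBF1, HMGCS1, SQLE and DHCR7. The place of SREBF1 rests on a peak with its summit upstream in WT and on a separate peak over the start in CREBBP-KO. Here SREBF2, FDFT1, INSIG1 and IDI1 were apart from one another, IDI1, SREBF1, HMGCS1 and SQLE overlapped from neighbour to neighbour, and DHCR7 stood apart below SQLE.

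Over the 19 tested intervals, 3 passed the threshold with a positive shift and 3 with a negative one, each 15.8%. Of all 34864 intervals, 18.6% ranked higher and 18.7% lower, so the share at these genes was near the background in both directions. With no fold filter, 3 of 32 ranked higher and 3 lower (9.38% each), against 12.5% and 12.1% of all 52187 intervals. The median shift was 0.27 over the 19 and 0.02 over all intervals. Promoters alone had a median shift of 0.15 over the 8 genes and 0.22 over all tested protein-coding promoters. Scores of all 3 CREBBP-KO libraries were above all 3 WT libraries at 5 of the 19 and below at 2, against 24.8% and 23.3% of all intervals. Among protein-coding promoters, 27% ranked higher and 7.61% lower, against 0 and 1 of the 8 (the 0 by limma, and also 0 at an unadjusted p under 0.05, where SREBF1, IDI1 and DHCR7 had the largest positive shifts, of 0.31, 0.39 and 0.35). The SREBF1 shift is that of its whole promoter interval, whose highest summit lay 3.41 kb upstream of the start.

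**Figure D3:**
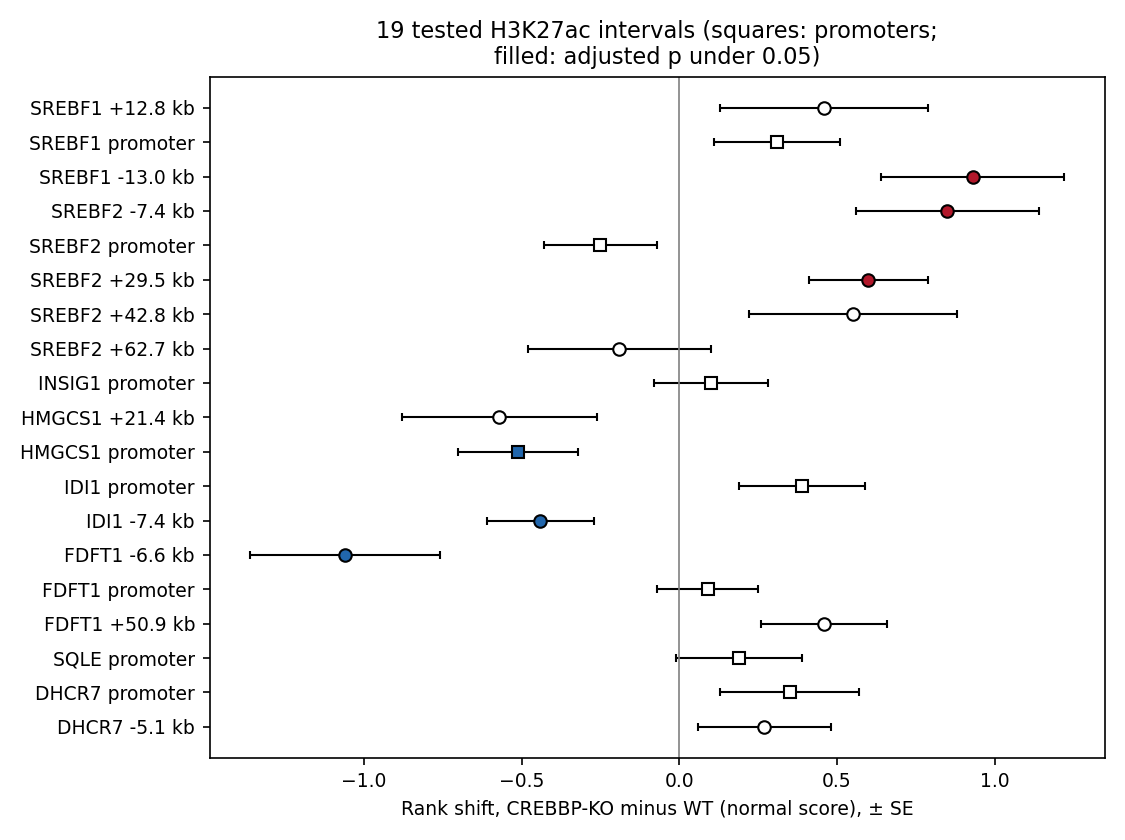
Rank shift of the 19 tested intervals, CREBBP-KO minus WT in normal scores with SE (horizontal axis), grouped by gene and named by the distance of the highest summit from the gene's canonical start; squares are promoters, circles other intervals, and filled symbols passed an adjusted p of 0.05. The 3 intervals called higher lie at the SREBF genes, and those called lower are the HMGCS1 promoter and the intervals upstream of FDFT1 and IDI1. The square of SREBF1 stands for an interval with its highest summit 3.41 kb upstream of the start.

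The 3 intervals that ranked higher lay at SREBF1 and SREBF2, and 2 of them entered the test through CREBBP-KO only. Upstream of SREBF1, an interval at chr17:17849042-17850306, 13.0 kb before the start, had folds of 3.93, 3.64 and 3.93 in WT and 5.38, 5.82 and 6.42 in CREBBP-KO. All CREBBP-KO libraries were higher, at percentile 68.4 ± 1.80 against 40.7 ± 3.53 (SD, n = 3 each), with a shift of 0.93 and an SE of 0.29 (limma, adjusted p = 0.0155). It reached the fold filter through CREBBP-KO only, the genotype in which it was higher, and with no filter the shift was 0.79 (SE 0.26, adjusted p = 0.0277). Without CREBBP-KO replicate 3 the shift of 0.75 had an adjusted p of 0.091. A further interval in intron 1 of SREBF1, which holds an alternative start 13.4 kb downstream of the canonical one and has its highest summit at 12.8 kb, had folds of 5.62, 6.04 and 6.16 in WT and 9.16, 10.4 and 5.19 in CREBBP-KO. CREBBP-KO replicate 3 was the lowest of the 6 libraries there and the other 2 CREBBP-KO libraries the highest, and the shift of 0.46 was not called (adjusted p = 0.274). Without that library the shift was 0.92, with an adjusted p of 0.017.

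At SREBF2, an interval at chr22:41823773-41827489, 7.39 kb upstream of the start, had folds of 3.71, 3.85 and 4.02 in WT and 5.90, 5.45 and 5.75 in CREBBP-KO, a shift of 0.85 with an SE of 0.29 (limma, adjusted p = 0.0242). The genotypes did not overlap, and this interval too passed the fold filter through CREBBP-KO only. With no filter its shift was 0.74 (SE 0.26, adjusted p = 0.0382). The adjusted p was 0.109 without CREBBP-KO replicate 1, 0.0784 without CREBBP-KO replicate 3 and 0.0592 with ranking by −log10 p. An interval of 10.8 kb in intron 1, at chr22:41855751-41866576 with its highest summit 29.5 kb into the gene, reached the filter in both genotypes. It had folds of 9.24, 7.92 and 8.50 in WT and 13.3, 12.1 and 13.2 in CREBBP-KO, at percentiles of 78.8 ± 2.44 and 89.7 ± 1.66 (SD, n = 3 each). This was the strongest H3K27ac site of the SREBF2 window away from the promoter, 1.5 times as high in CREBBP-KO by mean fold, with a shift of 0.60 and an SE of 0.19 (limma, adjusted p = 0.0164). Ranked by −log10 p, the shift was 0.30 with an adjusted p of 0.157, and the adjusted p was 0.0541 without WT replicate 2 and 0.0694 without CREBBP-KO replicate 1.

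Other SREBF2 intervals did not pass. In intron 7, folds of 4.73, 5.55 and 5.73 in WT stood beside 9.32, 7.77 and 5.05 in CREBBP-KO (shift 0.55, adjusted p = 0.197). By fold, CREBBP-KO replicate 3 lay among the WT libraries, and without it the shift was 0.94 with an adjusted p of 0.026. An interval in intron 13 near an alternative start had folds of 4.93 to 5.61 over the 6 libraries and a shift of -0.19 (adjusted p = 0.625).

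The remaining 2 intervals that ranked lower lay upstream of FDFT1 and IDI1. At chr8:11795174-11797960, an interval that holds an alternative FDFT1 start 7.17 kb upstream of the canonical one and has its highest summit at 6.58 kb, folds were 7.72, 7.01 and 8.98 in WT and 5.04, 4.39 and 6.81 in CREBBP-KO. All 3 CREBBP-KO libraries were lower, at percentile 63.6 ± 8.96 against 76.1 ± 3.68 (SD, n = 3 each), and the shift was -1.06 with an SE of 0.30 (limma, adjusted p = 0.00939). It reached the fold filter through WT only, the genotype in which it was higher, and with no filter the shift was -0.67 (SE 0.21, adjusted p = 0.0243). The adjusted p was 0.055 without WT replicate 3, 0.0519 without CREBBP-KO replicate 2 and 0.0535 with ranking by −log10 p. With no filter, the intervals of the alternative and the canonical FDFT1 start stood at shifts of -0.67 and 0.08, a difference that was not tested.

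At chr10:1053116-1059602, 7.44 kb upstream of IDI1 and with a coding start of WDR37 in it or within 1 kb, folds were 23.5, 23.3 and 23.3 in WT. They were 19.4, 21.2 and 25.9 in CREBBP-KO. The folds overlapped, with CREBBP-KO replicate 3 the highest of the 6, but within the lists the CREBBP-KO peaks stood lower, at percentile 97.7 ± 0.904 against 99.0 ± 0.167 (SD, n = 3 each). The shift of -0.44 had an SE of 0.17 (limma, adjusted p = 0.0471). Leaving out WT replicate 1, 2 or 3 or CREBBP-KO replicate 1 or 2 gave adjusted p-values from 0.0655 to 0.187. The log2 of the fold gave -0.18 with an adjusted p of 0.243, and the adjusted p was 0.106 without a trend in limma and 0.068 with no fold filter. By position this interval cannot be assigned to IDI1 alone, and a coding start of WDR37 also lies within 1 kb of the IDI1 promoter interval.

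Among the other named intervals, one lay 50.9 kb downstream of the FDFT1 start, with a coding start of CTSB in it or within 1 kb. Its folds were 8.13, 8.56 and 10.0 in WT and 13.0, 12.5 and 11.5 in CREBBP-KO. The genotypes were apart, but the shift of 0.46 was not called (adjusted p = 0.068); without WT replicate 3 it was 0.57, with an adjusted p of 0.0306. An interval upstream of DHCR7 held an alternative DHCR7 start and had a coding start of NADSYN1 in it or within 1 kb. Its percentiles were 75.8, 77.8 and 79.6 in WT and 83.1, 86.8 and 83.7 in CREBBP-KO, with a shift of 0.27 (adjusted p = 0.321). Inside HMGCS1, intron 10 held an interval with folds of 5.51, 8.23 and 9.52 in WT and 6.61, 6.16 and 5.47 in CREBBP-KO, with a shift of -0.57 (adjusted p = 0.144). WT replicate 1 lay among the CREBBP-KO libraries there, and without it the shift was -0.90 with an adjusted p of 0.0214.

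Of the 32 intervals with a peak in all 6 libraries, 13 did not reach the fold filter. Over all 32, percentiles of the 3 CREBBP-KO libraries were all higher at 9 and all lower at 3, against 28.9% and 12.1% of the 52187 such intervals in the series. The untested ones included an interval in intron 4 of SQLE, at an alternative start, with folds of 4.03, 3.66 and 4.12 in WT and 2.97, 2.61 and 3.06 in CREBBP-KO, all lower. With no fold filter its shift was -1.03 with an SE of 0.41 (adjusted p = 0.0654). In intron 9 of SQLE, folds of 4.65, 3.79 and 4.31 in WT stood beside 2.56, 3.83 and 2.68 in CREBBP-KO, which overlapped (shift without the filter -1.14, adjusted p = 0.0481). Downstream of IDI1, an interval at 13.1 kb had folds of 2.87, 3.19 and 3.77 in WT and 4.38, 4.04 and 3.82 in CREBBP-KO, all higher. The leading interval of INSIG1 away from its promoter, in intron 5, had folds of 3.28 to 4.00 over the 6 libraries. The other 9 untested intervals had folds of 2.27 to 5.41.

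The other 51 intervals had a peak in fewer than 6 libraries, 26 of them in 1 library only. These were weak peaks, with folds of 2.15 to 4.89. Peaks were limited to CREBBP-KO libraries at 18 intervals and to WT libraries at 14, and 0 were present in all 3 libraries of a genotype and in none of the other. The matching shares over all merged intervals of the series were not computed, and the CREBBP-KO lists were longer. The counts are therefore a description only. Of the 51 intervals, SREBF2 with 16 and FDFT1 with 13 held most, in windows of 114.2 and 83.8 kb.

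The windows of the 8 genes held 71, 73 and 63 peaks in the WT libraries and 84, 79 and 62 in the CREBBP-KO libraries. SREBF2 was the one window where the genotypes did not overlap in number, with 14, 14 and 15 peaks in WT and 21, 20 and 17 in CREBBP-KO (exact permutation test, p = 0.1). Among 17238 windows of protein-coding genes with a peak, 15.4% had more peaks in all 3 CREBBP-KO libraries and 1.73% fewer. The SREBF2 difference depended on the length of the lists: when every list was reduced to its 86163 most significant peaks, the SREBF2 window held 13, 13 and 15 against 13, 14 and 12. The number of peaks ranged from 2 at DHCR7 to 22 at FDFT1 over the other windows, with exact permutation p-values of 0.3 and above.

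The length covered by peaks was higher in all 3 CREBBP-KO libraries at SREBF1 (13.9, 14.0 and 14.0 kb against 12.7, 13.2 and 12.2 kb) and at SREBF2 (32.5, 31.5 and 36.1 kb against 24.4, 26.4 and 26.5 kb). At SQLE it was lower in all 3, with 6.4, 7.6 and 8.3 kb against 10.6, 12.2 and 8.5 kb (exact permutation test, p = 0.1 for each of the 3 genes). Covered length was higher in all 3 CREBBP-KO libraries at 29.7% of gene windows and lower at 9.83%. The other 5 windows overlapped.

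To set the 8 genes beside the rest of the pathway, promoters of 39 genes of sterol and fatty acid metabolism were read, of which 35 had a promoter peak in all 6 libraries and were tested. Of these, 6 ranked higher in CREBBP-KO, 2 lower, and 27 were not called. Ranked by −log10 p the counts were 2 higher and 5 lower, and with summit windows 2 and 2, so the balance between directions depended on the measure. Without the 8 genes it was 6 higher and 1 lower of 27, or 22.2% and 3.7%, against the 27% and 7.61% of all protein-coding promoters given above. TM7SF2, the sterol exporters ABCA1 and ABCG1, and MYLIP lacked a promoter peak in at least 1 library and were not tested.

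Of the genes of cholesterol transport, STARD4, a sterol carrier, had a shift of 0.30 (limma, adjusted p = 0.176) and NPC1, which exports cholesterol from lysosomes, one of -0.18 (adjusted p = 0.416). Their percentiles ran from 91.4 to 97.7 and from 94.7 to 98.1 over the 6 libraries, and neither was called.

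Of the SREBP processing genes, INSIG2, the relative of INSIG1, was the one called promoter of the list that passed the fold filter through CREBBP-KO only. It stood at percentiles of 39.7, 48.9 and 57.1 in WT and 82.0, 73.9 and 72.7 in CREBBP-KO (shift 1.23, SE 0.30, limma, adjusted p = 0.00286). With no filter its shift was 0.88 (SE 0.23, adjusted p = 0.00851), beside the 0.09 of INSIG1. MBTPS1, the site-1 protease that makes the first cut in SREBPs, ranked higher by 0.59 (SE 0.18, adjusted p = 0.0117). SCAP and MBTPS2, the site-2 protease, had shifts of 0.09 and 0.23 that were not called.

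In cholesterol synthesis, 2 of 18 tested promoters ranked higher and 2 lower (11.1% each, against 27% and 7.61% of all protein-coding promoters), and the median shift was -0.15. ACAT2, which condenses acetyl-CoA, and MVD, the mevalonate diphosphate decarboxylase, ranked higher, by 0.67 (SE 0.20, adjusted p = 0.0116) and 0.78 (SE 0.22, adjusted p = 0.0092). HSD17B7, an enzyme of the steps after lanosterol, ranked lower beside HMGCS1, by -0.84 (SE 0.22, adjusted p = 0.00522). Its folds were all lower in CREBBP-KO, but its percentiles overlapped, with WT replicate 3 at 80.7 and CREBBP-KO replicate 1 at 81.4.

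Fatty acid synthesis had 2 of 8 promoters higher, or 25.0% against the 27% of all promoters, and 0 lower by limma (0 also at an unadjusted p under 0.05), the most negative being FADS2 at -0.31 (adjusted p = 0.168). ACLY, the ATP citrate lyase that supplies cytosolic acetyl-CoA, stood at 80.4, 79.6 and 78.3 in WT and 91.9, 91.8 and 94.1 in CREBBP-KO (shift 0.82, SE 0.18, adjusted p = 0.00135). ELOVL6, a fatty acid elongase, had a shift of 0.51 (SE 0.19, adjusted p = 0.0388), while FASN and SCD had shifts of 0.37 and -0.29 that were not called.

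**Figure D4:**
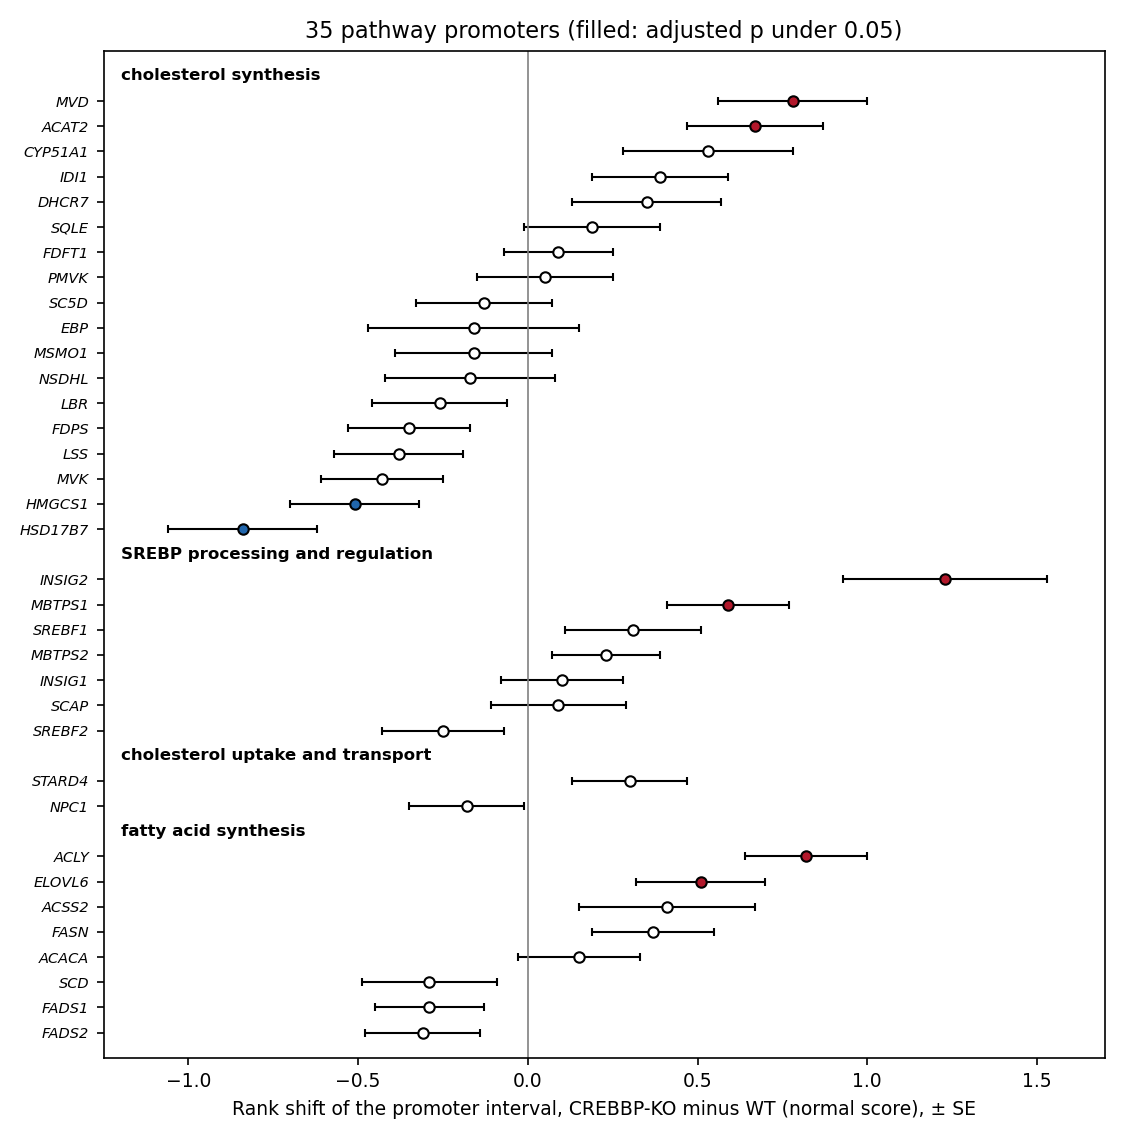
Rank shift of the 35 tested pathway promoters, CREBBP-KO minus WT in normal scores with SE (horizontal axis), grouped by role; red filled points ranked higher and blue filled points lower at an adjusted p under 0.05, and open points were not called. INSIG2, which entered through CREBBP-KO only, lies farthest to the right, followed by ACLY and MVD, and HSD17B7 farthest to the left.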

How the data were processed

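Peak lists of H3K27ac ChIP-seq in HCEC-1CT cells, 3 per genotype, were used; the 2 input samples were not analysed here. The authors aligned reads to hg38 in the nf-core pipeline (BWA is named in the submitters' processing notes), and MACS2 gave a narrow peak list per library. The deposited fold is a linear ratio over local background, and the deposited −log10 p and −log10 q come from the same caller. The authors describe a downsampling of reads, and whether the lists precede it is not given in the sources used here. All 588127 peaks on chromosomes of the reference lay within their lengths, and 216 lay on other sequences.

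Overlapping or touching peaks were merged, and an interval took each library's highest fold. Gene bodies and canonical starts came from GENCODE release 44. Intervals with a fold of at least 5 in all 3 libraries of a genotype and a peak in all 6 were ranked within each library, turned into normal scores, and fitted with limma 3.58.1 (lmFit, eBayes with a trend; R 4.3.3), CREBBP-KO minus WT, two-sided, with Benjamini-Hochberg adjustment over all 34864. The study's own test needs reads and was not run. For single values, means were set against each other with exact permutation tests, two-sided (scipy 1.17.1). Named were the promoters, intervals past the threshold or with genotypes apart, each gene's leading other interval, and pathway genes past the threshold; STARD4, NPC1, SCAP, MBTPS2, FASN, SCD and FADS2, the intervals in introns 7 and 13 of SREBF2 and all peak widths and summit distances were chosen after their values were seen. The 8 genes, the pathway and marker lists and the motifs were chosen with earlier results of these data known. Of the pathway list as first drawn up, 4 genes are not reported here and are not in its counts. Alternatives changed the filter, significance limit, list length, ranking, model, summit matching, threshold and windows, and left out each library.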

Additional observations from a re-analysis of the deposited data

How the results depend on the processing

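The numbers of intervals of the 8 genes that ranked higher and lower in CREBBP-KO were 3 and 3, and those of pathway promoters 6 and 2. With a fold filter of at least 10 they were 1 and 2, and 5 and 3, fewer intervals being tested (10 in place of 19). Ranking by −log10 p gave 1 and 2, and 2 and 5. Without a trend in limma the lower counts were 1 and 1, with the log2 of the fold the interval counts were 4 and 1 and the pathway counts 7 and 1, and with summit windows the pathway counts were 2 and 2. At an adjusted p under 0.0001 all 4 counts were 0. The cause of these differences was not tested. Leaving out each library gave 1 to 6 higher and 0 to 2 lower intervals, and 3 to 10 higher and 1 to 2 lower promoters, the extremes of 6, 0 and 10 coming without WT replicate 3 and the 3 higher promoters without WT replicate 1, CREBBP-KO replicate 1 or CREBBP-KO replicate 2.

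The replicate number as a block left all 4 counts as they were (3, 3, 6 and 2). Whether same-numbered libraries were prepared in pairs is not given by the labels. Deviations of same-numbered libraries correlated at 0.0108, 0.0144 and 0.0284, and those of different-numbered ones at -0.0248 to 0.0118. Such small values cannot decide whether the samples were paired.

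None of the 6 interval calls held under all alternatives. SREBF1 at 13.0 kb upstream passed in 14 of 15, SREBF2 in intron 1 in 13 of 16 and SREBF2 upstream in 12 of 15. FDFT1 upstream passed in 12 of 15, HMGCS1 in 9 of 15 and the interval upstream of IDI1 in 6 of 16. These counts leave out alternatives in which the interval did not enter the test. They also leave out the limit of an adjusted p under 0.0001, at which none passed. Ranking by −log10 p reversed the shifts of the SQLE (-0.16), INSIG1 (-0.22), FDFT1 (-0.15) and IDI1 (-0.06) promoters, none of them called, and the percentile differences of SQLE (-0.391), INSIG1 (-0.791) and FDFT1 (-0.455). The INSIG1 shift ran from -0.08 to 0.20 with each library left out, negative without WT replicate 1. The SREBF1 difference was 2.04 with a 3 kb window. Mean differences in peak number reversed at SREBF1 with no flank (-0.333), at SREBF2 (-0.667), INSIG1 (-0.333) and FDFT1 (-1) with lists of the same length, at FDFT1 (-2.33) and IDI1 (0.333) with −log10 q of at least 5, and at HMGCS1, which ran from -1.5 to 1 with each library left out, without WT replicate 2 (0.167) or CREBBP-KO replicate 3 (1). The depth of each library is not given, so weak peaks could not be weighed by their reads.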
